A study of Homo sapiens with 16 samples.

Results

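The genes described here are 10 human sensors of nucleic acid in the cytosol and endosome and their adaptors: CGAS, STING1, IFI16, DDX58 (RIG-I), IFIH1 (MDA5), DHX58 (LGP2), MAVS, TLR3, TBK1 and EIF2AK2 (PKR). They were chosen by name for their place in the pathway, with earlier results of these data known, out of 60671 genes in the table. Shares of all genes set beside counts of the 10 are therefore descriptive. All 10 were among the 19316 genes with enough counts to be tested. The cells were HEK293, an established human embryonic kidney line of epithelial morphology, in 16 bulk RNA-seq libraries forming 8 groups of 2. The parental group carried no plasmid. The other 7 groups received 5 micrograms of pcDNA3.0 plasmid with Lipofectamine 3000 in 60 mm plates, and RNA was collected 48 hours later. Their plasmid was empty (empty vector) or carried 1 of 6 cloned transcripts of the long non-coding RNA gene LINC01016, which the labels call T1, T2, CU1 and CU2 and, for the last pair, CU1ENC and CU1ENU. The series asks what each transcript does in a cell line that does not transcribe the gene. Parental cells differ from empty vector cells by the plasmid and the lipid reagent together, and no group received lipid alone. The expression is transient and no label gives the share of cells transfected. In bulk RNA, a change in how many cells carry a transcript cannot be told apart from a change in its amount per cell.

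A cell reads DNA or double-stranded RNA in the wrong compartment as a sign of infection. CGAS binds DNA and makes a cyclic dinucleotide that activates STING1 on the endoplasmic reticulum; IFI16 also binds DNA and can act with STING1. DDX58 and IFIH1 are helicases that bind viral-type RNA and signal through MAVS on mitochondria, DHX58 is a related helicase without the signalling domains, and TLR3 senses double-stranded RNA in endosomes. These routes meet at the kinase TBK1, which activates IRF3 and so interferon genes, while EIF2AK2 is a kinase that binds double-stranded RNA and halts translation by phosphorylating eIF2alpha. Several of these genes are themselves induced by interferon through response elements built from repeated GAAA letters. HEK293 cells are widely used for plasmid transfection and are known for low CGAS and STING1.

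Stretches of 5 promoters are shown because they hold such paired GAAA letters. Each of these genes was higher in replicate 1 than in replicate 2 of every transfected group, but their profiles over the libraries were not all alike. The stretches come from RefSeq windows of GRCh38.p14 that run from 250 bases before to 50 bases after an annotated start. Windows were at hand for 7 of the 10 genes (8 windows, since IFI16 has 2 starts), and each line is printed 5′ to 3′ on the gene's strand with the match in capitals.
IFIH1 (chr2:162318686-162318745, minus strand): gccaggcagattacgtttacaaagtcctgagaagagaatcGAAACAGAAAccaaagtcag
EIF2AK2 (chr2:37156975-37157026, minus strand): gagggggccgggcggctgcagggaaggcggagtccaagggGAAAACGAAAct
TLR3 (chr4:186069112-186069163, plus strand): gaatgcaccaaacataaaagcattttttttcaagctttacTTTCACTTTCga
IFI16 (chr1:159009812-159009871, plus strand): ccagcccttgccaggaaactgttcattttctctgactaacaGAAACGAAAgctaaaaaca
DDX58 (chr9:32526381-32526440, minus strand): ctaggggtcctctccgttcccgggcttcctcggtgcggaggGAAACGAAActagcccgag

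The first 3 lines match GAAANNGAAA, searched on both strands; the capitals of TLR3 are its reverse complement. This spacing was found in 3 of the 8 windows (IFIH1, EIF2AK2 and TLR3) and in 3.57% of 35116 promoter windows of the same length. The IFIH1 window held 3 matches, of which 2 overlap each other. The last 2 lines match GAAANGAAA, a spacing added after the windows had been seen, which occurred in 3.12% of all windows. Either spacing was present in 5 of the 8 windows, from 5 of the 7 genes, and in 6.4% of all windows. For IFI16 and DDX58 only the spacing added later matched, so this count was not fixed before the windows were seen. A single GAAA was present in 86.3% of all windows. The windows of MAVS and TBK1 held neither paired spacing. In the retrieved windows the match lay across the start site in EIF2AK2 (bases -6 to 4) and TLR3 (-4 to 6), and between 12 and 21 bases before the start in the printed stretch of IFIH1. A match describes these letters and does not show binding.

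The labels were checked first with the cloned gene. LINC01016 had 0 or 1 count in the 4 parental and empty vector libraries and between 2617 and 12165 CPM (counts scaled to library size) in the 12 others. Library totals ran from 15040770 to 17255935 counts. Of 9 epithelial and HEK293 markers 8 were tested, and their summed level was 2240 to 2523 CPM in parental and 2560 to 3130 CPM in transfected libraries; PAX8 stayed at or below 0.245 CPM. The 10 leukocyte markers summed to 2.56 and 2.66 CPM in parental and 4.29 to 7.02 CPM in transfected libraries, with CD14 the most abundant, MS4A1 at 0 in all, and PTPRC at or below 0.122 CPM. No label states that the 2 libraries of a group came from separate cultures; every p-value therefore reflects library-to-library spread alone, and that spread may be technical.

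**Figure D1:**
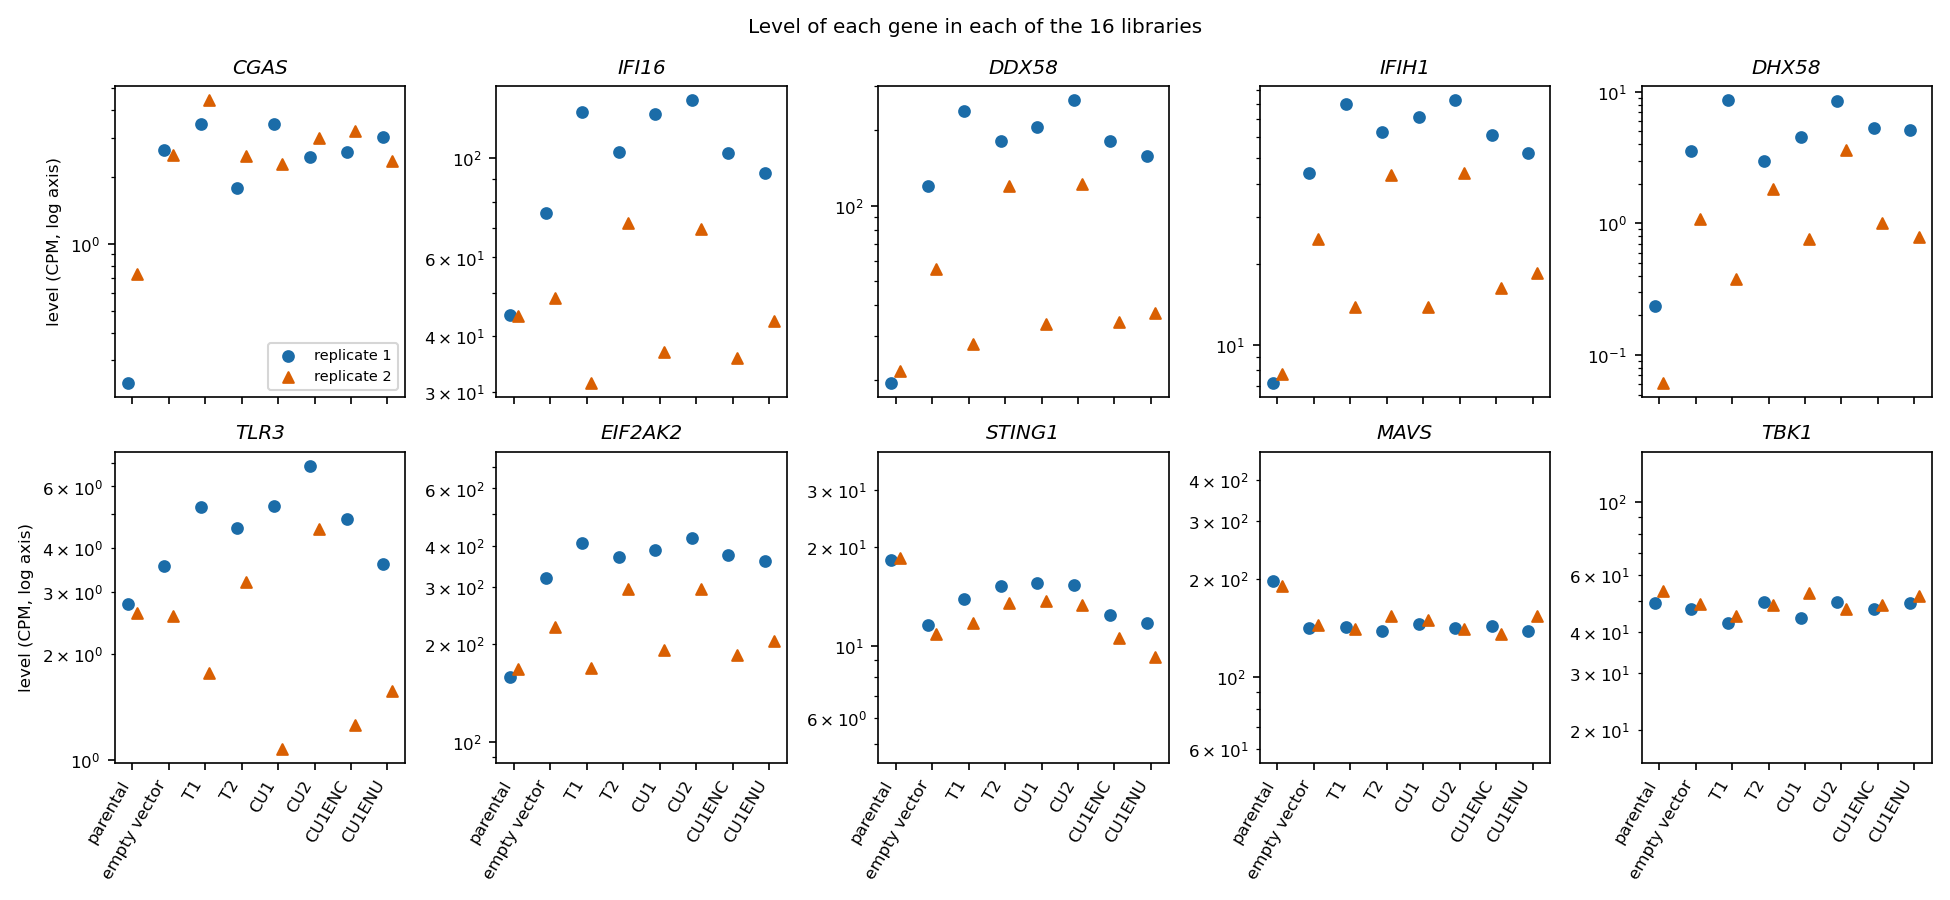
Level of each gene in each library, in CPM on a log axis whose range differs by panel, with replicate 1 as circles and replicate 2 as triangles. CGAS, DDX58, IFIH1, DHX58 and EIF2AK2 were above both parental libraries in all 14 transfected libraries, and MAVS and STING1 were below them. DDX58, IFIH1, DHX58, IFI16, TLR3, EIF2AK2 and STING1 were higher in replicate 1 than in replicate 2 of every transfected group.

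The DNA sensor CGAS (chr6:73413515-73452297, minus strand, GRCh38.p13 as for all gene positions here) was almost absent from parental cells and higher in every transfected library. Its level was 0.237 and 0.731 CPM in the parental libraries, from 4 and 12 counts. It was 2.64 and 2.50 CPM with empty vector, 3.46 and 4.43 with T1, 1.79 and 2.49 with T2, and 3.45 and 2.28 with CU1. With CU2 it was 2.45 and 2.98 CPM, with CU1ENC 2.59 and 3.20, and with CU1ENU 3.04 and 2.35. The groups with plasmid did not overlap with the parental group, and among them T1 was highest, with both libraries above those of CU1ENC, the next in order.

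Against parental cells, CGAS rose by a log2 fold change of 2.40 ± 0.43 (SE) with empty vector (5.26-fold, edgeR adjusted p = 0.00245, n = 2 against 2) and by 2.51 ± 0.37 over the mean of the 7 transfected groups (5.72-fold, edgeR adjusted p = 0.000222). These comparisons share the parental libraries. The parental counts set the size: the second value was 1.90 without parental replicate 1 and 3.51 without parental replicate 2, and it passed the threshold both times. The first was 1.78 and 3.38 in the same refits. The ratio of summed scaled counts, 14 transfected against 2 parental libraries, was 5.90 with an exact 95% interval of 3.61 to 10.4 that covers counting error only. CGAS differed little between replicate numbers in transfected cells, with a replicate 2 minus replicate 1 difference of 0.05 ± 0.16 (edgeR adjusted p = 0.842).

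STING1, the adaptor that CGAS activates (chr5:139475533-139482935, minus strand), moved the other way. It was 18.3 and 18.6 CPM in parental cells, 11.5 and 10.8 with empty vector, 13.9 and 11.8 with T1, and 15.2 and 13.5 with T2. It was 15.5 and 13.7 CPM with CU1, 15.3 and 13.3 with CU2, 12.4 and 10.5 with CU1ENC, and 11.7 and 9.21 with CU1ENU. All 14 transfected libraries lay below both parental libraries. STING1 fell by 0.72 ± 0.16 on the log2 scale with empty vector (1.65-fold lower, edgeR adjusted p = 0.00730) and by 0.54 ± 0.11 over the 7 transfected groups (1.46-fold lower, edgeR adjusted p = 0.00272). Without empty vector replicate 2 the first value was -0.68 and no longer passed (edgeR adjusted p = 0.0655).

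MAVS, the mitochondrial adaptor of the RNA helicases (chr20:3846799-3876123, plus strand), also fell. It was 197 and 191 CPM in parental cells and between 135 and 154 CPM in all 14 transfected libraries, with 141 and 144 in empty vector. The log2 change was -0.44 ± 0.08 with empty vector (1.36-fold lower, edgeR adjusted p = 0.00254) and -0.44 ± 0.06 over the 7 groups (1.35-fold lower, edgeR adjusted p = 0.000121). The kinase TBK1 (chr12:64452092-64502114, plus strand) was 49.3 and 53.3 CPM in parental and 42.5 to 52.6 CPM in transfected libraries, so the groups overlapped. Its change over the 7 groups was -0.10 ± 0.07, with a 95% interval of -0.25 to 0.05 (edgeR adjusted p = 0.303).

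Among the RNA sensors, DDX58 (chr9:32455302-32526208, minus strand) showed both a rise over parental cells and a wide gap between replicates. It was 19.4 and 21.7 CPM in parental cells. In replicate 1 it was 120 CPM with empty vector, 239 with T1, 182 with T2, 207 with CU1, 264 with CU2, 181 with CU1ENC and 158 with CU1ENU. In replicate 2, in the same order of groups, it was 55.8, 27.9, 120, 33.5, 122, 34.0 and 37.2 CPM. All 14 were above both parental libraries. On the log2 scale T1, CU1, CU1ENC and CU1ENU of replicate 2 nevertheless lay closer to parental cells than to their own partners.

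The related helicases had the same arrangement of libraries. IFIH1 (chr2:162267074-162318684, minus strand) was 7.16 and 7.74 CPM in parental cells, 43.8 to 82.3 in replicate 1 of the transfected groups, and in replicate 2 24.9 with empty vector, 13.8 with T1, 43.1 with T2, 13.8 with CU1, 44.1 with CU2, 16.3 with CU1ENC and 18.6 with CU1ENU. DHX58 (chr17:42101404-42112714, minus strand) had only 4 and 1 counts in parental cells, which are 0.237 and 0.0609 CPM. It reached 2.96 to 8.65 CPM in replicate 1 and 0.379 to 3.63 CPM in replicate 2, lowest with T1 and highest with CU2. T2 and CU2 were the 2 highest groups of replicate 2 for all 3 helicases.

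EIF2AK2 (chr2:37099210-37157065, minus strand) was already abundant, at 159 and 167 CPM in parental cells. It was 319 to 423 CPM in replicate 1 and 169 to 295 CPM in replicate 2, where T1 (169) and CU1ENC (185) were nearest to parental cells and T2 (295) and CU2 (294) farthest above them. IFI16 (chr1:158999968-159055155, plus strand) was 44.6 and 44.3 CPM in parental cells, 75.4 to 135 in replicate 1 and 31.4 to 71.6 in replicate 2. TLR3 (chr4:186069155-186088073, plus strand) was 2.78 and 2.62 CPM in parental cells, 3.56 to 6.87 in replicate 1 and 1.08 to 4.53 in replicate 2. IFI16 was thus above parental cells in 10 of 14 transfected libraries and below in 4, and TLR3 above in 9 and below in 5. All the libraries below were of replicate 2.

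None of these 6 genes passed the test against parental cells when replicate number was left out of the model. Over the 7 transfected groups the log2 change was 2.58 ± 1.20 for DDX58 (edgeR adjusted p = 0.147), 2.56 ± 1.01 for IFIH1 (0.0949), 4.37 ± 1.84 for DHX58 (0.108) and 0.87 ± 0.44 for EIF2AK2 (0.172). For IFI16 it was 0.80 ± 0.68 and for TLR3 0.36 ± 0.59. Of the 10 genes, 3 passed (CGAS up, STING1 and MAVS down), where 29.7% of all genes tested did, 15.4% up and 14.3% down. With empty vector alone the same number passed, 1 up and 2 down, against 16% of all genes, 9.41% up and 6.6% down. The median log2 change of the 10 was 0.84 over the 7 groups, and that of all tested genes -0.0038.

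Libraries with the same replicate number deviated together from their group means, and with the number as a block 4 more genes passed. The blocked log2 changes over the 7 groups were 4.38 ± 0.91 for DHX58 (edgeR adjusted p = 0.00318), 2.45 ± 0.60 for IFIH1 (0.0117), 2.32 ± 0.71 for DDX58 (0.0315) and 0.79 ± 0.25 for EIF2AK2 (0.0351). That made 7 of 10, where 45.7% of all genes passed. With empty vector alone the block added DHX58 (edgeR adjusted p = 0.0199) and IFIH1 (0.0495), which made 5 of 10 against 34.3% of genes, and DDX58 had an adjusted p of 0.115. IFI16 (edgeR adjusted p = 0.206) and TLR3 (0.521) did not pass with the block over the 7 groups. The block fits 1 replicate difference shared by all groups, parental cells included. For DDX58, IFIH1 and EIF2AK2 the parental log2 difference, replicate 2 minus replicate 1, was 0.16, 0.11 and 0.07. Transfected minus parental cells, that difference was -1.96, -1.56 and -0.86. The blocked values of these genes depend on the shared difference, and 1 parental library per number cannot test it.

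Counted without a model, CGAS, DDX58, IFIH1, DHX58 and EIF2AK2 were above both parental libraries in all 14 transfected ones, as were 16.8% of tested genes. STING1 and MAVS were below in all 14, as were 14.9%. For DHX58 the ratio of summed scaled counts was 23.3, with an exact counting interval of 9.95 to 72.0 that rests on 5 parental counts. Differences within a replicate number were taken from log2 CPM with a prior count of 2, which pulls genes with few counts toward 0. DHX58, with 4 and 1 parental counts, is therefore not compared between numbers on this scale, and the CGAS values, from 4 and 12 parental counts, are too small. Within replicate number 1 the log2 difference between transfected and parental cells was 3.26 for DDX58, 3.12 for IFIH1 and 1.24 for EIF2AK2. Within replicate number 2 it was 1.25, 1.51 and 0.39 in the same order. TLR3 changed sign, from 0.75 in replicate 1 to -0.34 in replicate 2, and IFI16 went from 1.26 to 0.05. CGAS was 2.97 and 1.78, STING1 -0.43 and -0.66, and MAVS -0.48 and -0.39. These within-number values have 1 parental library each and no test.

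**Figure D2:**
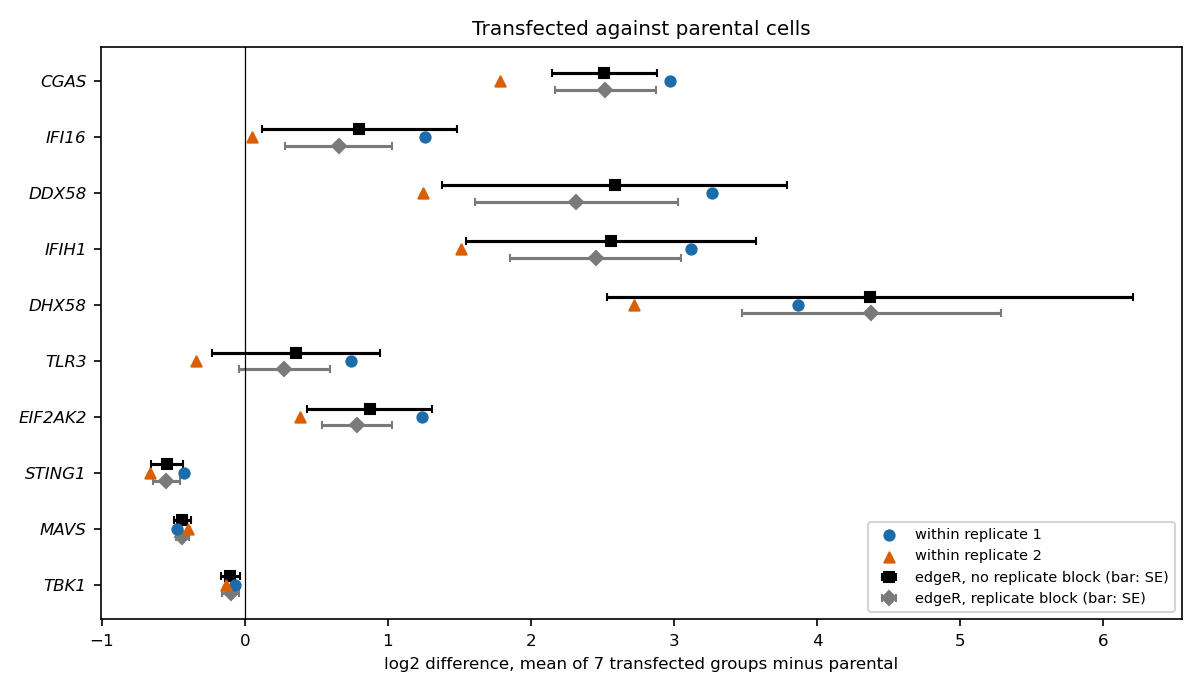
Log2 difference between the mean of the 7 transfected groups and parental cells for each gene, from edgeR without and with the replicate number as a block (squares and diamonds, bars are SE) and within each replicate number (circles and triangles, no error, from log2 CPM with a prior count of 2, which draws DHX58 and CGAS toward 0). TLR3 lay at 0.75 within replicate 1 and at -0.34 within replicate 2, while MAVS lay at -0.48 and -0.39.

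The gap between replicate numbers was tested within the 14 transfected libraries, with group in the model. Of the 10 genes, 7 were lower in replicate 2 and none higher, where 17.6% of genes tested were lower and 17.5% higher. The replicate 2 minus replicate 1 difference was -2.08 ± 0.39 for DHX58 (edgeR adjusted p = 0.00464), -1.81 ± 0.35 for DDX58 (0.00848), -1.45 ± 0.29 for IFIH1 (0.00956) and -1.20 ± 0.21 for IFI16 (0.00525). It was -1.15 ± 0.19 for TLR3 (edgeR adjusted p = 7.81e-05), -0.78 ± 0.13 for EIF2AK2 (0.00387) and -0.21 ± 0.07 for STING1 (0.0187). STING1 did not pass without the CU1ENU libraries (edgeR adjusted p = 0.0622) or with DESeq2 (adjusted p = 0.0668). MAVS (0.03 ± 0.03) and TBK1 (0.05 ± 0.04) did not pass, nor did CGAS.

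Replicate 1 was the higher library in all 7 transfected groups for the same 7 genes, as it was for 12.3% of genes tested. The replicate 1 to replicate 2 ratio of DDX58 ran from 1.51 in T2 to 8.54 in T1, with a median of 4.25. The median ratio was 5.29 for DHX58, 2.82 for IFIH1, 2.30 for TLR3, 2.14 for IFI16, 1.76 for EIF2AK2 and 1.15 for STING1. In parental cells the DDX58 ratio was 0.895 and that of DHX58 was 3.89, the latter from 4 and 1 counts. Whether the gap was particular to transfected cells was tested as an interaction: for DDX58 the replicate difference was 1.96 lower in transfected than in parental cells on the log2 scale, as -1.96 ± 1.21 (edgeR adjusted p = 0.848). For DHX58 the same term was -0.25 ± 7.18 (edgeR adjusted p = 0.996). It was -0.86 ± 0.37 for EIF2AK2, -1.06 ± 0.55 for TLR3, -1.19 ± 0.62 for IFI16, -1.56 ± 1.17 for IFIH1 and -1.54 ± 0.83 for CGAS. For STING1 it was -0.23 ± 0.19, for TBK1 -0.06 ± 0.12 and for MAVS 0.08 ± 0.09. The parental side rests on 1 library per replicate number, so the test cannot decide whether the gap was particular to transfected cells. None of the 10 genes passed it after adjustment, where 0.0621% of genes did, and 0 of the 10 had an unadjusted p under 0.05.

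Other measures also followed the replicate number in transfected libraries. The sum of the 9 epithelial and HEK293 markers was 2560 to 2756 CPM in replicate 1 and 2886 to 3130 CPM in replicate 2. These markers include VIM, NEFL and NEFM, and VIM alone was 1213 to 1501 CPM over the 16 libraries. The sum is therefore not a level of epithelial genes alone. LINC01016 was higher in replicate 1 of all 6 transcript groups. In replicate 2 LINC01016 stood at 2617 CPM in CU2 and 4825 CPM in T2, the 2 groups with the highest DDX58 there. It stood at 6294 to 8637 CPM in the other 4 transcript groups. Empty vector of replicate 2 had 0 counts of LINC01016 and DDX58 at 55.8 CPM. In replicate 1 CU2 had the lowest LINC01016 of the 6 (3069 CPM) and the highest DDX58 (264 CPM). T2 there held less LINC01016 than T1 (5200 against 6581 CPM) and also less DDX58 (182 against 239 CPM). The leukocyte marker sum overlapped between the numbers, at 4.32 to 6.19 and 4.29 to 7.02 CPM. The part of any of these in the replicate gap was not tested, and the labels do not say what a replicate number stands for.

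**Figure D3:**
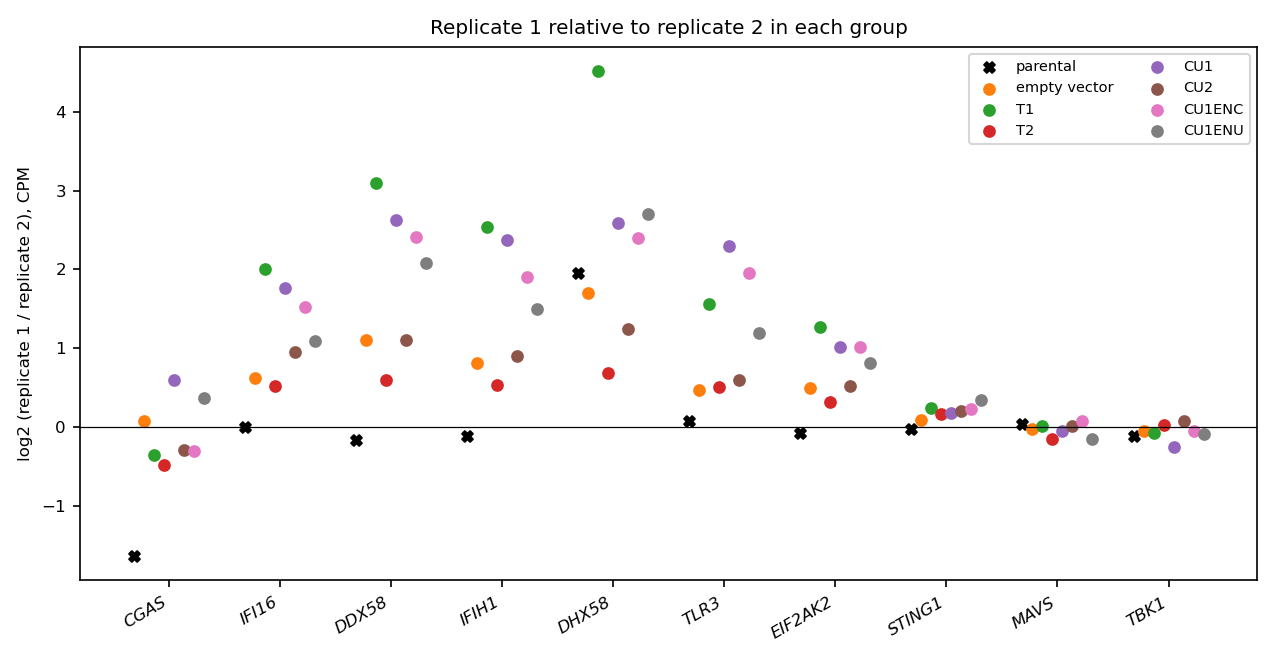
Replicate 1 to replicate 2 ratio of CPM for each gene and group, on a log2 scale, with parental cells as crosses and the 7 transfected groups as circles. DDX58 was positive in all 7 transfected groups and close to 0 in parental cells, and MAVS and TBK1 stayed near 0 in all groups; the parental values of CGAS and DHX58 rest on 16 and 5 counts.

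The transcripts of LINC01016 were compared with empty vector, the control that shares the plasmid and the lipid. No gene of the 10 passed the edgeR test for T1, T2, CU1, CU1ENC or CU1ENU, where 0.0104% of genes did in each, or for CU2, where 0.00518% did; DESeq2 called none of the 10 either. At an unadjusted p under 0.05, 1 of the 10 differed in T2, where 2.32% of all genes did, 1 in CU1 (1.63%) and 1 in CU2 (1.23%), and none in the others. With the replicate block these were 1 in T2 (7.58% of all genes), 1 in CU1 (4.83%) and 3 in CU2 (3.03%), where DHX58 and TLR3 were added. The gene without the block was STING1 each time, higher than empty vector by 0.38 ± 0.16 in CU1, 0.36 ± 0.16 in T2 and 0.36 ± 0.16 in CU2 on the log2 scale. These values share the empty vector libraries, and T1 (0.20), CU1ENC (0.04) and CU1ENU (-0.10) were lower. The edgeR F-test among the 6 transcripts gave STING1 an unadjusted p of 0.0465 without the block and 0.00406 with it. Of 19316 genes tested, 98 and 617 had an unadjusted p under 0.05 in these fits, with STING1 the only one of the 10. After adjustment none of the 10 genes, nor any other (0%), passed this F-test.

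CU2 was the highest of the 6 transcripts against empty vector for DHX58, DDX58, IFIH1, TLR3, IFI16 and EIF2AK2, T1 for CGAS (0.62), CU1 for STING1 and MAVS, and CU1ENU for TBK1. In CU2 the log2 differences were 1.39 ± 1.35 for DHX58 with a 95% interval of -1.68 to 4.46, 1.14 ± 1.27 for DDX58 (-1.78 to 4.05) and 0.90 ± 0.74 for TLR3 (-0.72 to 2.51). Over the 6 transcripts the 95% intervals of DDX58 ran from -2.75 to 4.05 and those of DHX58 from -3.19 to 4.46. Those of EIF2AK2 ran from -1.18 to 1.62. The intervals given here are from the fit without the replicate block, in which the gap between replicate numbers counts as spread. That fit cannot exclude changes inside them. MAVS and TBK1 were bounded far more tightly. Over the 6 transcripts, the 95% intervals of MAVS stayed between -0.21 and 0.22 and those of TBK1 between -0.33 and 0.27, and CGAS lay between -1.03 and 1.35.

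**Figure D4:**
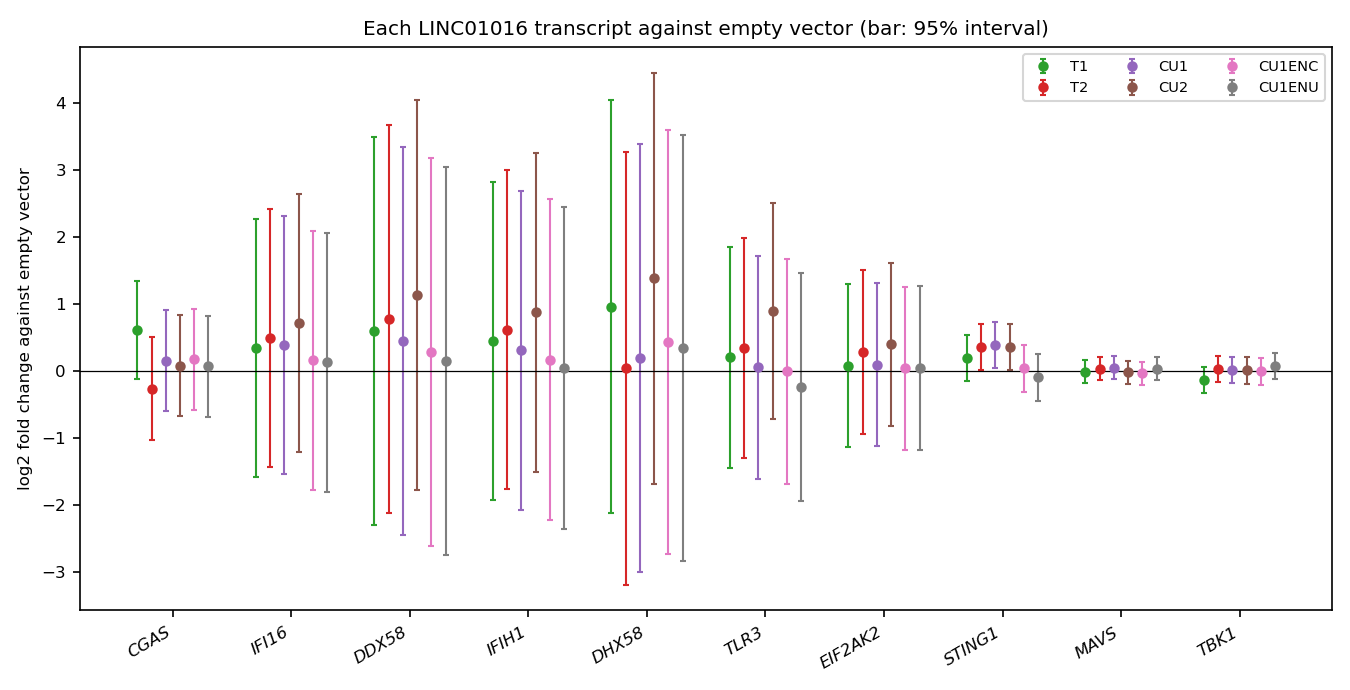
Log2 fold change of each gene for each LINC01016 transcript against empty vector, with 95% intervals from edgeR without the replicate block. The intervals of DDX58 reach from -2.75 to 4.05 and those of MAVS from -0.21 to 0.22.

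An F-test over all 8 groups was passed by 3 of the 10 genes, MAVS (edgeR adjusted p = 0.0166), CGAS (0.0187) and STING1 (0.0487), and by 5.5% of genes tested. It was passed by none of the 10 when either parental replicate 1 or parental replicate 2 was left out. In order of mean level, parental cells were highest for STING1, MAVS and TBK1, overlapping with the next group for TBK1, and lowest for CGAS, IFI16, DDX58, IFIH1, DHX58 and EIF2AK2. The other groups overlapped with their neighbours in that order for DDX58, where CU2 was highest and empty vector lowest of the transfected groups.

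Levels were also taken per kilobase of exon, with the length given for the gene and not for the transcripts expressed. The order of genes on this scale is therefore approximate. Parental cells held most MAVS (16.5 CPM per kb) and EIF2AK2 (15.2), then IFI16 (8.39), TBK1 (8.04), DDX58 (4.43) and STING1 (3.84). IFIH1 (1.46), TLR3 (0.402), CGAS (0.116) and DHX58 (0.0389) were far lower. Over transfected libraries the median levels were 28.5 CPM per kb for EIF2AK2, 26.1 for DDX58, 13.9 for IFI16, 12.1 for MAVS and 8.63 for IFIH1. TBK1 followed at 7.58, STING1 at 2.68, DHX58 at 0.852, CGAS at 0.626 and TLR3 at 0.533. By these medians DDX58 stood below TBK1 in parental cells and above it in transfected cells, but in replicate 2 of T1, CU1, CU1ENC and CU1ENU, 4 of the 14 transfected libraries, it was below TBK1.

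The genes with the profile most like each variable gene were found by root mean square distance between centred log2 CPM over the 16 libraries. For DDX58 these were HELZ2 (0.19), DDX60 (0.21) and IFITM3 (0.21), and for IFIH1 they were IRF7 (0.16), HELZ2 (0.20) and SP110 (0.20). For IFI16 they were STAT2, PARP14 and PLEKHA4 (each 0.15), and for TLR3 they were STAT2 (0.26), PLEKHA4 and TMEM140 (each 0.29). For DHX58 they were OAS3 (0.42), ISG15 (0.42) and IFI6 (0.43). CGAS had other neighbours: KRT17 (0.30), GLP2R (0.31) and PPP1R15A (0.32).

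The rest of the pathway was described with 6 lists that leave out the 10 genes, also chosen with earlier results of these data known. With the replicate block, 23.1% of all genes rose and 22.5% fell over the 7 transfected groups. In the DNA sensing list 7 of 23 rose and 8 fell, and in the RNA sensing list 17 of 26 rose and 4 fell. In the endosomal TLR route list it was 3 up and 1 down of 9, and in the kinase and IRF3 list 8 and 0 of 15. Around EIF2AK2 and eIF2 it was 12 up and 3 down of 18, and for interferon genes 18 and 0 of 22. The values below are without the block. In the DNA sensing list 4 of 23 tested genes rose and 4 fell over the 7 transfected groups, where 15.4% and 14.3% of all genes did. POLR3C, a subunit of the RNA polymerase that transcribes cytosolic AT-rich DNA, rose by 0.57 ± 0.07 on the log2 scale (edgeR adjusted p = 5.41e-05). DDX41, a helicase reported to bind DNA upstream of STING1, rose by 0.45 ± 0.08 (0.000833). ENPP1, which degrades the CGAS product, and MRE11, a DNA repair nuclease, fell by 0.31 ± 0.07 and 0.27 ± 0.06. ENPP1 did not pass without parental replicate 2 (edgeR adjusted p = 0.0716), nor MRE11 without parental replicate 1 (0.0801), and the count of 8 became 3 without parental replicate 1 and 4 without parental replicate 2. Between replicates in transfected cells 11 of the 23 were higher and 4 lower in replicate 2, where 17.5% and 17.6% of all genes were.

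In the RNA sensing list 12 of 26 genes rose and 3 fell, where 15.4% and 14.3% of all genes did, with a median of 0.26. The helicase DDX21 rose by 0.83 ± 0.12 (edgeR adjusted p = 0.000199), MEX3C, a ubiquitin ligase acting on DDX58, by 0.66 ± 0.12 (0.00112), and PRKRA, an activator of EIF2AK2, by 0.32 ± 0.06 (0.00117). TKFC, an inhibitor of IFIH1, fell by 0.41 ± 0.08 (edgeR adjusted p = 0.00205), but not past the threshold without parental replicate 2 (0.0542). The 15 became 5 without parental replicate 1 and 7 without parental replicate 2. Across replicates in transfected cells 9 of the 26 were higher and 7 lower in replicate 2, where 17.5% and 17.6% of all genes were. The higher ones included DDX21 (0.22 ± 0.03) and MEX3C (0.24 ± 0.03). The lower ones included DDX60 (-1.82 ± 0.33), TRIM25, the ubiquitin ligase that activates DDX58 (-0.80 ± 0.14), and ADAR, which edits double-stranded RNA (-0.61 ± 0.10).

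The list around EIF2AK2 and eIF2 had 10 of 18 genes up and 2 down over the 7 groups, against 15.4% and 14.3% of all genes. PPP1R15A, which directs a phosphatase to eIF2alpha, was 52.7 and 54.1 CPM in parental cells and 216 to 339 CPM in transfected ones, a log2 rise of 2.26 ± 0.16 (edgeR adjusted p = 1.62e-06). The stress factors DDIT3 and ATF4 rose by 1.44 ± 0.08 (edgeR adjusted p = 1.34e-07) and 0.54 ± 0.07 (8.08e-05). The 12 became 6 without parental replicate 1 and 8 without parental replicate 2. In this list 6 genes were higher and 2 lower in replicate 2, against 17.5% and 17.6% of all genes, with PPP1R15A by 0.26 ± 0.05 higher, so that it ran opposite to EIF2AK2 between replicate numbers.

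The kinase and IRF3 list had 6 of 15 genes up and none down, against 15.4% and 14.3% of all genes. TNFAIP3, an inhibitor of this signalling, rose by 1.54 ± 0.12 (edgeR adjusted p = 2.86e-06), and AZI2, a TBK1 adaptor, by 0.34 ± 0.08 (0.00451). IRF3 itself rose by 0.25 ± 0.06 (edgeR adjusted p = 0.0102). Without parental replicate 2 only 1 gene of the list passed, with edgeR adjusted p of 0.0773 for AZI2 and 0.187 for IRF3, and without parental replicate 1 the count was 4. IRF7, the interferon-inducible relative of IRF3, was lower in replicate 2 by -1.32 ± 0.28 (edgeR adjusted p = 0.0115). Of 9 genes tested in the endosomal TLR route list, CD14 rose (1.23 ± 0.28, edgeR adjusted p = 0.00431) and IRAK4 fell (-0.35 ± 0.10, 0.0194). With 1 library left out at a time, CD14 ran from 1.03 to 1.43 and IRAK4 from -0.40 to -0.32. Neither passed in all of these refits.

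Interferon genes and early interferon targets showed the widest replicate gap of the 6 lists. All 22 had a positive log2 change over the 7 groups, with a median of 4.16, or 3.21 with the 4 genes at 0 in parental cells set to their lower bounds, but 3 passed (IFNB1, CCL5 and IFNL1), where 15.4% of all genes rose. That count was 0 without parental replicate 1 and 0 without parental replicate 2, and 18 with the replicate block, where 23.1% of all genes rose. IFNB1, the interferon that IRF3 drives, had 0 counts in both parental libraries and 0.126 to 1.78 CPM in the 14 transfected ones. IFNL1 was at 0 to 1.11 CPM in the transfected libraries. With 1 library left out at a time, CCL5 ran from 2.83 to 5.31, IFNL1 from 5.44 to 6.28 and IFNB1 from 6.01 to 6.47. None of these 3 genes passed in all of these refits, and IFNL1 and CCL5 also depended on single transfected libraries. ISG15 was 9.65 and 10.3 CPM in parental cells, 180 to 376 in replicate 1 and 39.4 to 166 in replicate 2. Between replicates 19 of 22 were lower in replicate 2 and none higher, where 17.6% and 17.5% of all genes were, with a median of -1.88 against -0.018 for all genes. STAT2 (-1.15 ± 0.17) and IRF9 (-1.77 ± 0.16), subunits of the factor that binds interferon response elements, were among them. In none of the 6 lists did a gene pass for the mean of the 6 transcripts against empty vector.

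**Figure D5:**
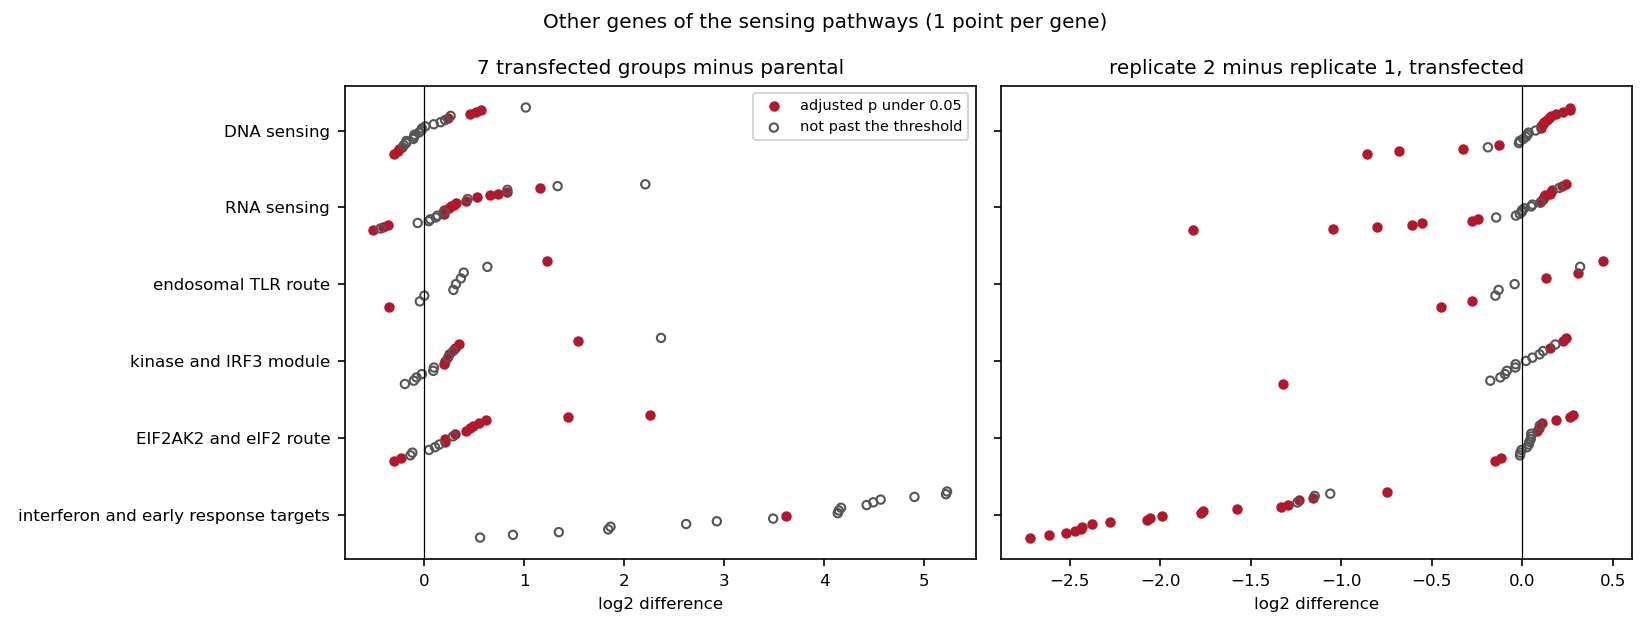
Log2 difference of each tested gene in the 6 pathway lists, as the mean of the 7 transfected groups minus parental (left, without 4 interferon genes at 0 in parental cells) and as replicate 2 minus replicate 1 in transfected cells (right), with filled points past an edgeR adjusted p of 0.05. All points of the interferon list are above 0 on the left and below 0 on the right.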

How the data were processed

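The deposited values are raw counts of reads for each gene. Per the file headers they were made with featureCounts 2.0.1 (strand option 2) on Ensembl release 101. Per the submitters' processing notes the tools included HISAT2 and DESeq2 and the build was GRCh38.p13. Tool versions for these were not given in the sources used here. Groups came from the titles. The 10 genes and the 6 lists were chosen with earlier results of these data known.

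Genes were filtered with filterByExpr (minimum count 10, total 15), scaled by TMM (factors 0.974 to 1.03) and tested with edgeR 4.0.16 quasi-likelihood F-tests on 8 group means over 16 libraries, with Benjamini-Hochberg adjustment over all tested genes, a threshold of 0.05, and 8 residual degrees of freedom. The standard error (SE) is the log2 change over the square root of F. The replicate comparison used group and replicate number over 14 libraries (6 residual degrees of freedom). Alternatives were RLE factors, no filter, DESeq2 1.42.0, a replicate block, and leaving out each library. Within-number values and the interaction were added after seeing the data. Named list genes were those passing, up to 4 of lowest p in each direction; others are named by level. The code was tested on simulated data.

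Same-numbered libraries deviated together from their group means for each of 28 pairs of groups (correlation 0.162 to 0.442), so numbers were taken to pair libraries. Replicates differed beyond sampling noise (chi-square per degree of freedom 6.21 to 17.0). Protein sequences were not used here.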

Additional observations from a re-analysis of the deposited data

How the results depend on the processing

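With the replicate number as a block, the number of the 10 genes called rose from 3 to 5 for empty vector against parental cells and from 3 to 7 for the 7 transfected groups, and the genes called from 3092 to 6626, from 5744 to 8826 and, in the F-test over 8 groups, from 1062 to 5230; the block changed no call of the 10 genes against empty vector. DESeq2 called 6 of the 10 over the 7 groups and 1955 genes in the F-test. Without the filter on low counts, edgeR called 8 of the 10 for empty vector, 8 for the 7 groups, 8 in the F-test over 8 groups (2533 genes), 4 in the F-test over the 6 transcripts, 1 for T1, 2 for T2, 4 for CU2 and 1 for the mean of the 6 transcripts. In that fit the spread of every gene was set to the trend: the value used for DDX58 was 0.533, against 63.2 with the filter, so these calls leave out the gap between its replicates.

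Leaving out 1 library at a time gave 2 to 3 genes of the 10 for empty vector, 3 for the 7 groups, 0 to 3 in the F-test over 8 groups. Genes called ran from 1365 to 3196, from 2498 to 6030 and from 45 to 1158 in that order, with the lowest values without empty vector replicate 2, parental replicate 1 and parental replicate 2. For replicate 2 against 1, leaving out both libraries of 1 group at a time gave 6 to 7 genes of the 10 and 5819 to 6555 genes called, lowest without CU1.

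Signs that turned were of values not called. TLR3 was -0.34 (7 groups) and -0.031 (empty vector) within replicate number 2, and -0.073 to 0.40 for empty vector without single libraries. TBK1 for the mean of the 6 transcripts was 0.0019 with RLE, 0.0069 without the filter, 0.0019 with DESeq2 and -0.025 to 0.023 without single libraries. For the same mean, DHX58 ran from -0.046 to 1.65, MAVS from -0.0058 to 0.024, TLR3 from -0.050 to 0.47 and EIF2AK2 from -0.071 to 0.43. STING1 ran from -0.083 to 0.15 in CU1ENC and from -0.27 to 0.0705 in CU1ENU, and CGAS between replicates, without 1 group at a time, from -0.0068 to 0.17. The cause was not tested. Counts of 4 and 12 (CGAS) and of 4 and 1 (DHX58) in parental cells limit those folds.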
